A study of Mus musculus with 6 samples.

Results

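The genes described here encode ligands and receptors that guide axons and migrating cells: ephrins and their Eph receptors, semaphorins with their plexin and neuropilin receptors, Slits with Robo receptors, and netrin with its receptors. They form a list of 53 genes, all of which matched an Ensembl identifier among the 52636 in the count tables. RNA was sequenced from the mouse embryonic stem cell line E14 after 4 days without LIF and the MEK and GSK3 inhibitors and with retinoic acid, at a dose the labels give as 5 µm. The knockout group (KO in the plots) held 3 libraries of E14 cells that lack an enhancer cluster, and the wild-type group (WT) held 3 libraries of E14 cells that keep it. Both groups had the same growth medium and the same treatment. The series' design text describes the material as neural progenitor cells and the 3 libraries of a group as biological replicates. How many clones the knockout libraries came from, and where the deletion lies, the sources used here do not give.

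These families steer growing axons by contact or over distance. Ephrins are held on the cell surface, the A type by a lipid anchor and the B type by a membrane-spanning stretch, and their Eph receptors are tyrosine kinases, so that cells which touch can repel or attach to each other. Secreted semaphorins act through a neuropilin that binds the ligand and a plexin that signals, whereas transmembrane semaphorins mostly bind plexins directly. Slits repel axons through Robo receptors, and netrin attracts through Dcc and repels through Unc5 receptors. The same genes act outside the nervous system, in blood vessels, epithelia and the sorting of cells in the early embryo.

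Gene counts per library lay between 7780368 and 9472916, so that 1 CPM (the usual scaling of counts by library size, here with TMM factors) is about 8 to 9 reads. Knockout replicate 1 stood apart: genes over ribosomal RNA repeats held 1.04% of its counts, where the other libraries had 0.0726 to 0.118%. The share of mitochondrially encoded genes was 1.67 to 1.73% in wild type and 2.58 to 2.89% in the knockout. The marker counts that follow are to be read against the 68.6% of all tested genes that passed, 34.5% higher and 34.0% lower. Of 16 neural progenitor markers, 10 had enough counts to be tested, 3 rose and 6 fell. Their summed level was 526 to 545 CPM in wild type and 193 to 212 CPM in the knockout. Fabp7 and Dbx1 had 0 counts in each of the 6 libraries. Sox1 was at 1.98 and 1.84 CPM and did not pass the test, and Nes, encoding nestin, fell by 2.78 (SE 0.059) on the log2 scale. By 1 or more on that scale, 1 neural progenitor marker rose and 4 fell, and the largest rise was 1.16. Of 12 neuron markers 7 were tested, 1 rose and 4 fell, with Snap25 at 0 counts and a summed level of 186 to 201 CPM in wild type against 103 to 108 CPM in the knockout. Extraembryonic endoderm markers rose in 9 and fell in 1 of 12 tested, and their sum went from 3626 to 3700.2 CPM up to 9666 to 9983 CPM. Pluripotency markers rose in 3 and fell in 6 of 10, with a sum of 1139 to 1178 CPM in wild type and 910.0 to 949 CPM in the knockout. Mesenchyme and fibroblast markers rose in 2 and fell in 5 of 9 tested (615 to 626 CPM against 413 to 419.98 CPM). Endothelial markers rose in 2 and fell in 3 of 6 tested (101 to 104 CPM against 50.9 to 55.5 CPM, Emcn at 0 counts), and neural crest markers rose in 1 and fell in 2 of 7 tested (116 to 125 CPM against 66.0 to 71.0 CPM). These sums lean on well-counted genes, so they need not hold for each marker. Mean CPM in wild type and knockout was 231 and 33.6 for Nes and 143 and 49.6 for Cdh2. For Tubb3, the neuron marker that fell most, it was 62.7 and 2.04. Over the 7 neuron markers tested, log2 fold changes ran from -4.92 to 1.63, with a median of -0.37. By 1 or more on that scale, 1 neuron marker rose and 2 fell. The endoderm markers Lama1 and Col4a1 went from 933 to 2811 and from 1902 to 4920 CPM. They were named because they had the smallest adjusted p of that list by edgeR. Over the 12 endoderm markers, log2 fold changes ran from -0.65 to 2.22, with a median of 0.85, and 2 did not pass. Among mesenchyme markers Col1a1 went from 353 to 108 CPM while Pdgfra rose from 75.4 to 176 CPM. The part of these marker shifts in the values below was not tested.

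Guidance genes changed in both directions in the knockout. After the filter on low counts 48 of the 53 genes entered the test, in which 23 rose, 15 fell and 10 did not pass (edgeR, quasi-likelihood, Benjamini-Hochberg adjustment over all tested genes, threshold 0.05). That is 79.2% of the tested guidance genes, beside 68.6% of all 15816 tested genes, of which 34.5% were higher and 34.0% lower. Of the 48 tested genes, 21 (43.8%) passed and moved by 1 or more on the log2 scale, 10 higher and 11 lower, beside 21.0% of all tested genes. The median absolute log2 fold change was 0.90 for the guidance genes and 0.49 for all tested genes, and the medians with sign were 0.16 and 0.0091. The groups were fully separated, library by library, in 39 of the 48 genes, beside 70.9% of all tested genes. Of the 22 receptors and co-receptors tested 15 rose and 5 fell, and of the 26 ligands tested 8 rose and 10 fell. Without knockout replicate 1, 21 guidance genes were higher and 15 lower. Epha8, Ephb1 and Unc5c reached the count filter in every knockout library but not in every wild-type library, so they entered the test through the knockout libraries. These genes are included in the counts of higher genes and of higher receptors above, and their rise is not independent of that filter. Because these are bulk libraries, fewer cells that express a gene and less of its RNA per cell cannot be told apart. Fold changes below are knockout over wild type on the log2 scale, with n = 3 libraries per group, and coordinates are on GRCm38.

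**Figure D1:**
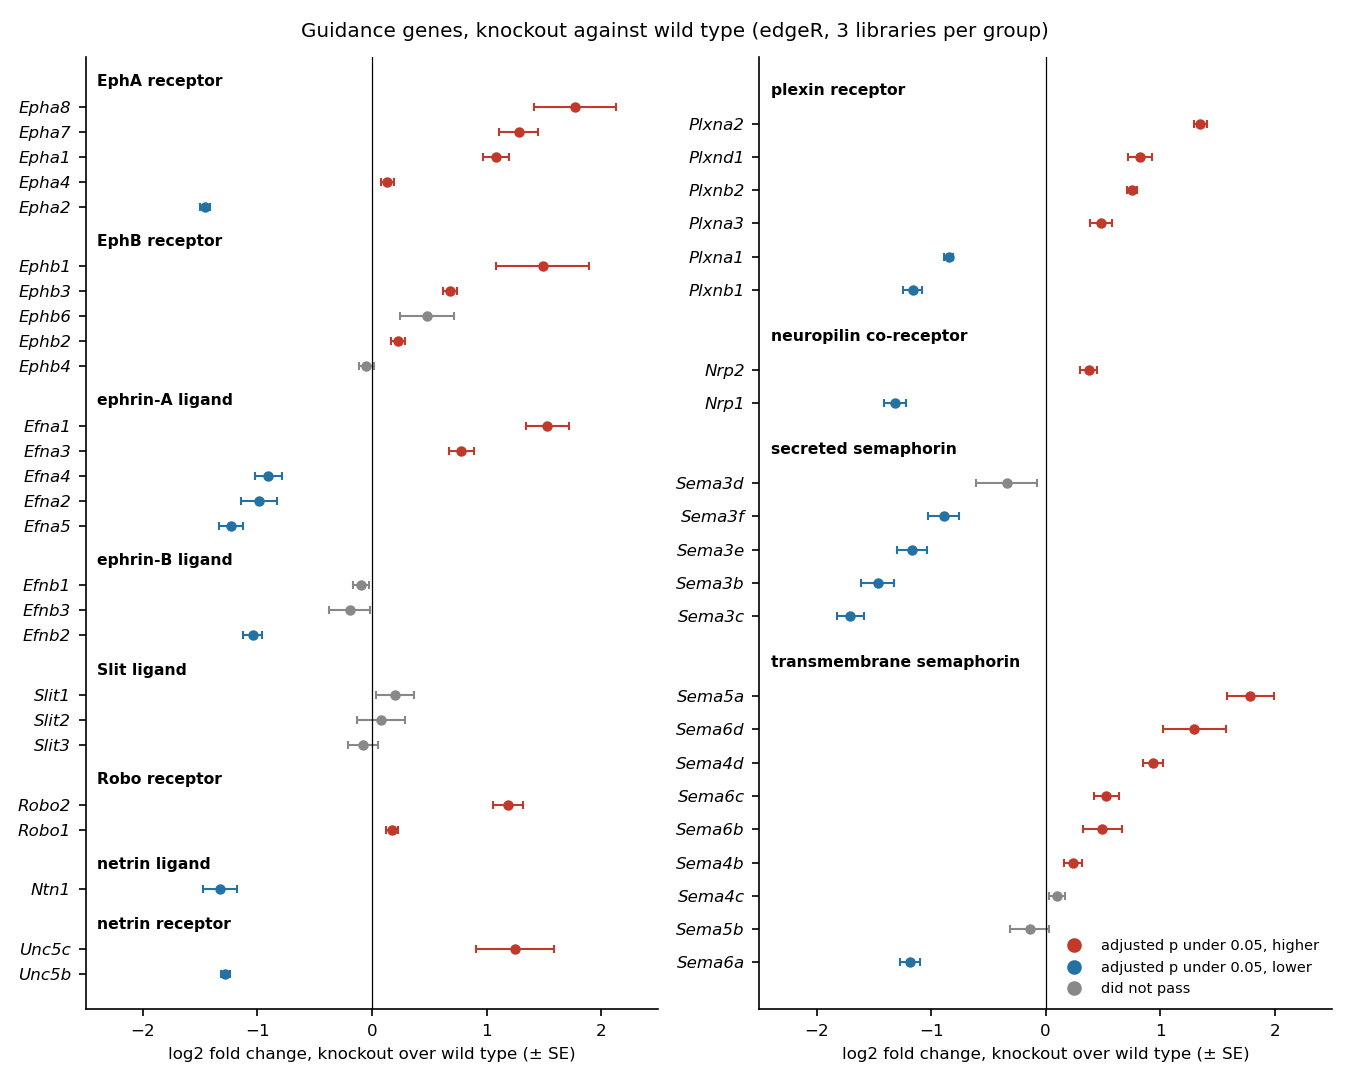
Log2 fold change, knockout over wild type, with its standard error, for the 48 guidance genes tested, grouped by role. Red points passed the test and were higher (23 genes), blue points passed and were lower (15 genes), and grey points did not pass (10 genes). The secreted semaphorins all lie left of 0, while 7 of 9 transmembrane semaphorins and 8 of 10 Eph receptors lie right of it.

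Of the 5 EphA receptors tested 4 rose and 1, the abundant Epha2, fell, where 34.5% of all tested genes rose and 34.0% fell. Epha2 (ENSMUSG00000006445, chromosome 4, 141301240 to 141329384), a receptor found on epithelial and embryonic stem cells, stood at 342, 343 and 324 CPM in wild type against 127, 125 and 116 CPM in the knockout. It fell by 1.46 (SE 0.046), with an adjusted p of 9.92e-20 by edgeR. All wild-type libraries lay far above all knockout libraries. The other EphA receptors that could be tested went the other way, though Epha8 entered the test through the knockout libraries. Epha1, a family member best known from epithelia, stood at 14.8, 18.4 and 19.6 CPM in wild type against 37.7, 41.1 and 33.3 CPM in the knockout and rose by 1.08 (SE 0.11). Epha7, expressed in the developing forebrain and spinal cord, stood at 8.16, 5.74 and 5.89 CPM in wild type against 13.3, 17.2 and 17.5 CPM in the knockout and rose by 1.28 (SE 0.17). For Epha8, known from the midbrain, there were 9, 10 and 7 reads in wild type against 20, 31 and 33 in the knockout, and it rose by 1.77 (SE 0.36). Epha4, which binds ephrins of both the A and the B type, hardly moved. It stood at 75.8, 87.1 and 80.3 CPM in wild type against 88.0, 87.2 and 91.8 CPM in the knockout, the closest knockout and wild-type libraries almost touching, and its log2 fold change of 0.13 (SE 0.057) had an adjusted p of 0.0392 by edgeR. That call was lost by edgeR when wild-type replicate 1 (adjusted p = 0.246) or 3 (0.109) or knockout replicate 1 (0.0582) or 3 (0.1302) was left out, with no count filter (0.0703) and with DESeq2 (0.1299).

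EphB receptors rose in 3 of 5 cases and fell in 0, where 34.5% of all tested genes rose and 34.0% fell. The same counts held at an unadjusted p under 0.05 by edgeR and by DESeq2. Of the genes that rose, Ephb1 entered the test through the knockout libraries. Ephb3, with known roles in commissural axons and in the gut epithelium, stood at 70.7, 70.7 and 63.1 CPM in wild type against 109.8, 116 and 103 CPM in the knockout and rose by 0.68 (SE 0.058), the clearest change in this subfamily. Ephb2, its close partner in those tissues, stood at 57.4, 57.2 and 61.2 CPM in wild type against 68.7, 68.4 and 68.8 CPM in the knockout and rose by 0.23 (SE 0.062), a small shift in which the groups still did not overlap. Ephb1, which steers retinal axons at the optic chiasm, gave 7, 7 and 7 reads in wild type against 15, 21 and 20 in the knockout and rose by 1.49 (SE 0.41). Neither Ephb4, the receptor of veins, at -0.05 (SE 0.062), nor Ephb6, whose kinase is inactive, at 0.48 (SE 0.24), passed the test. Ephb4 was at 67.8 ± 3.77 CPM in wild type and 65.6 ± 0.787 CPM in the knockout, and Ephb6 at 4.21 ± 0.519 and 5.91 ± 1.41 CPM. Ephb6 had an adjusted p of 0.0741 by edgeR, and of 0.0374 without knockout replicate 2. Over the EphA and EphB receptors tested, the adjusted p of the passing genes ran from 9.92e-20 to 0.0392 by edgeR.

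Levels of different genes were compared as CPM per kilobase of annotated exon. On that scale the EphA receptors together went from 87.5 ± 2.29 in wild type to 49.1 ± 1.66 in the knockout (mean ± SD). Epha2 made up 82.3 ± 1.17% of this sum in wild type and 53.3 ± 1.23% in the knockout. The share of Epha4 went from 11.5 ± 0.666% to 22.5 ± 1.40% and that of Epha1 from 5.13 ± 0.787% to 19.3 ± 1.39%. Epha2 therefore remained the main EphA transcript in all 6 libraries, with a smaller lead. Within a library, where scaling between libraries plays no part, Epha2 stood 6.79 to 7.77 times above Epha4 in wild type and 2.18 to 2.48 times above it in the knockout. The EphB receptors summed to 30.7 ± 1.27 and 38.0 ± 1.06 CPM per kilobase, with Ephb4 leading in wild type (47.5 ± 0.884%) and Ephb3 in the knockout (43.4 ± 1.64%).

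The ephrin-A ligands split, 2 higher and 3 lower in the knockout, where 34.5 and 34.0% of all tested genes were. Efna5, which forms the gradient that orders retinal axons in the midbrain, stood at 36.1, 36.7 and 35.5 CPM in wild type against 14.3, 15.3 and 16.5 CPM in the knockout and fell by 1.23 (SE 0.10). Efna2, which shares that role, fell by 0.99 (SE 0.16), from 15.8 ± 0.814 to 7.98 ± 1.46 CPM. All knockout libraries lay below all wild-type libraries for both. The remaining ephrin-A genes lie side by side on chromosome 3, Efna3 10.4 kb from Efna4 and 32.8 kb from Efna1, with no other protein-coding gene between them in the annotation. These neighbours moved apart. Efna4 (ENSMUSG00000028040, chromosome 3, 89333390 to 89338028) stood at 34.5, 28.6 and 29.2 CPM in wild type against 14.7, 18.1 and 16.4 CPM in the knockout and fell by 0.91 (SE 0.12). Efna3 (ENSMUSG00000028039, chromosome 3, 89313899 to 89322965) stood at 20.5, 18.2 and 18.0 CPM in wild type against 35.8, 31.6 and 30.0 CPM in the knockout and rose by 0.78 (SE 0.11). Efna1 (ENSMUSG00000027954, chromosome 3, 89271733 to 89281142), a preferred ligand of Epha2, stood at 3.67, 6.28 and 4.91 CPM in wild type against 16.7, 12.9 and 13.7 CPM in the knockout and rose by 1.53 (SE 0.19). Per kilobase, Efna3 stood at 0.389 to 0.418 of the level of Efna4 within wild-type libraries and at 1.15 to 1.60 times that level within knockout libraries. Exons on the other strand overlap 14.1% of the exon length of Efna3 (Gm15998) and 10.5% of that of Efna4 (4731419I09Rik), and whether the counting used strand is not stated in the labels.

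The 250 bases before a RefSeq transcript start (GRCm38.p6) are shown for these 3 neighbours because they lie close together and went in opposite directions. Where the table lists more than 1 start, the window with the fewest annotated exon bases was taken, and each window held 0 such bases. Efna4 had 1 start listed, while for Efna3 and Efna1, with 2 each, the window taken was not at the outermost start. Capitals mark any match, on either strand, to the motifs GGGCGG for the GC box, CCAAT for the CCAAT box, TATAAA for the TATA box, AGGTCA for the hexamer that nuclear receptors bind, CACGTG for an E-box and TGANTCA for an AP-1 site. None of these overlaps another in the windows shown. All are on the minus strand and are written 5′ to 3′.
Efna4, chr3:89338029-89338278: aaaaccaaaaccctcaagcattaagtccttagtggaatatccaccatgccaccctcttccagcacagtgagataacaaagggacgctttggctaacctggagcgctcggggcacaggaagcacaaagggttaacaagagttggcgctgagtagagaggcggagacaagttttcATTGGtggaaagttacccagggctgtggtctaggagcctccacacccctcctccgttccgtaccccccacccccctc
Efna3, chr3:89321769-89322018: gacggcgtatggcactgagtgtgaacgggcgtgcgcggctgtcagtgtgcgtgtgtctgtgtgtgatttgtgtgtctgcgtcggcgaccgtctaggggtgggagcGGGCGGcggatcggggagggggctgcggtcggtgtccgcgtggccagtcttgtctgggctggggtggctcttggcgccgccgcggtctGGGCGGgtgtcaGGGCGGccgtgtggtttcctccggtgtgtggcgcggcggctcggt
Efna1, chr3:89279646-89279895: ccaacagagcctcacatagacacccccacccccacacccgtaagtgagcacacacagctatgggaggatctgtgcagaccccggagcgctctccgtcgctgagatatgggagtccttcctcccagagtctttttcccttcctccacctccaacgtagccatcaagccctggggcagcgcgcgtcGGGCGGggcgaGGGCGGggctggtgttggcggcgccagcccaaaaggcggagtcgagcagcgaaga
The Efna4 window held 1 CCAAT match (read as ATTGG), no GC box and 7 CpG dinucleotides at a GC content of 54.4%. The windows of Efna3 and Efna1 held 3 and 2 GC boxes, 31 and 18 CpG dinucleotides, and a GC content of 70.4 and 64.4%. Across the guidance genes, 44 of 53 had an entry in the RefSeq table, read at their outermost start. Efna3 and Efna1 therefore count here with windows other than those shown. A GC box stood in 32 of these 44 windows (72.7%) and in 33.0% of 27025 such windows of all genes, whose median GC content was 52.0% against 64.8% for the 44. CCAAT was found in 27.3% of the 44 and 34.5% of all windows, TATAAA in 4.55 and 13.0%, AGGTCA in 13.6 and 13.8%, CACGTG in 6.82 and 6.04% and TGANTCA in 2.27 and 6.85%. GC boxes were present in 17 of 23 windows of genes that rose and in 9 of 10 windows of genes that fell. All 23 higher genes had a window, but only 10 of the 15 lower genes did. The 27025 windows include genes that were not tested.

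Of the 3 ephrin-B ligands Efnb2 passed the test, a share of lower genes (33.3%) near the 34.0% of all tested genes. Efnb2 (ENSMUSG00000001300, chromosome 8, 8617434 to 8661242), the ephrin that marks arteries and pairs with Ephb4, stood at 57.4, 62.0 and 62.1 CPM in wild type against 30.4, 26.6 and 31.0 CPM in the knockout and fell by 1.04 (SE 0.082). All knockout libraries lay below all wild-type libraries. Efnb1, an X-linked ligand active in neural crest and skull development, was at -0.10 (SE 0.066) and did not pass, and Efnb3, a midline barrier for spinal axons, was at -0.19 (SE 0.18). The level of Efnb1 was 58.6 ± 0.842 CPM in wild type and 54.8 ± 1.33 CPM in the knockout, and that of Efnb3 9.31 ± 0.86 and 8.16 ± 1.58 CPM. The share of Efnb1 in the ephrin-B level per kilobase was 59.1 ± 1.18% in wild type and 69.9 ± 0.546% in the knockout. Ephrin-A ligands as a sum went from 46.1 ± 1.96 to 39.0 ± 1.76 CPM per kilobase, and ephrin-B ligands from 28.7 ± 0.174 to 22.7 ± 0.461.

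**Figure D2:**
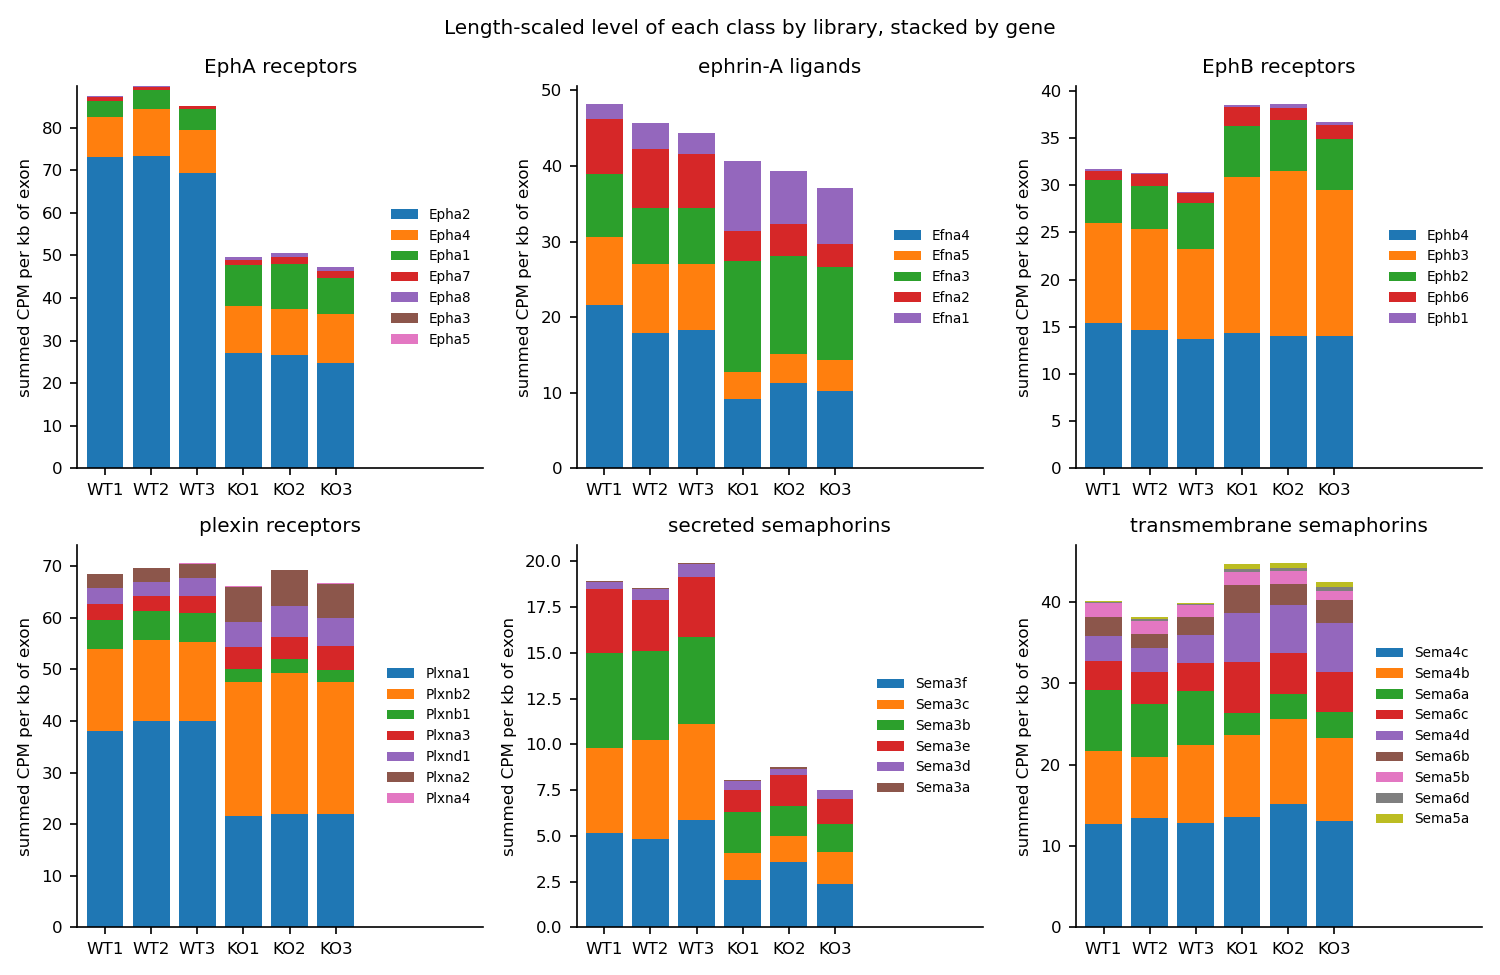
Summed CPM per kilobase of exon in each library (WT1 to WT3 and KO1 to KO3), stacked by gene, for 6 classes of guidance gene. The EphA bars are lower in the knockout through Epha2, the secreted semaphorin bars are lower through several genes, and the plexin bars keep their height while Plxna1 shrinks and Plxnb2 grows.

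Secreted semaphorins were lower in the knockout. Of 6 listed, 5 could be tested, 4 fell and 0 rose, where 34.0% of all tested genes fell and 34.5% rose. The same counts held at an unadjusted p under 0.05 and by DESeq2. Sema3c (ENSMUSG00000028780, chromosome 5, 17574281 to 17730268), needed for the outflow tract of the heart, stood at 33.0, 38.5 and 37.5 CPM in wild type against 10.6, 10.2 and 12.5 CPM in the knockout and fell by 1.71 (SE 0.12), with an adjusted p of 1.72e-12 by edgeR. Sema3b, first known as a tumour suppressor candidate, stood at 24.8, 23.4 and 22.6 CPM in wild type against 10.7, 7.74 and 7.26 CPM in the knockout and fell by 1.47 (SE 0.14). Each knockout library held less of either transcript than any wild-type library. Sema3e, which binds Plxnd1 without a neuropilin, stood at 32.4, 25.7 and 30.8 CPM in wild type against 11.0, 15.6 and 12.9 CPM in the knockout and fell by 1.17 (SE 0.13). Sema3f, the repellent that acts through Nrp2, stood at 26.8, 25.1 and 30.4 CPM in wild type against 13.5, 18.6 and 12.3 CPM in the knockout and fell by 0.89 (SE 0.13), again with no overlap between the groups. Sema3d, at -0.34 (SE 0.27), did not pass, with 4.69 ± 1.37 CPM in wild type and 3.71 ± 0.768 CPM in the knockout. Sema3b and Sema3f lie 72.3 kb apart on chromosome 9, with 3 protein-coding genes between them. Together the secreted semaphorins went from 19.1 ± 0.706 to 8.10 ± 0.635 CPM per kilobase, or 0.424 of the wild-type level.

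Of 9 transmembrane semaphorins 6 were higher and 1 was lower, where 34.5 and 34.0% of all tested genes were. Without wild-type replicate 2 the higher count was 4 of 9, since Sema4b and Sema6b no longer passed. Sema5a, which carries thrombospondin repeats, stood at 2.60, 3.30 and 3.31 CPM in wild type against 11.2, 9.86 and 10.9 CPM in the knockout and rose by 1.79 (SE 0.20). Sema6d, a ligand of Plxna1 in heart development, gave 16, 23 and 16 reads in wild type against 36, 39 and 52 in the knockout and rose by 1.30 (SE 0.27). Both were rare transcripts, at 0.57 and 0.492 CPM per kilobase even in the knockout. Sema4d, known on T cells and as a ligand of Plxnb1, was better counted. It stood at 23.8, 22.3 and 26.3 CPM in wild type against 46.4, 45.3 and 46.5 CPM in the knockout and rose by 0.94 (SE 0.090). Its knockout libraries lay close together and above all wild-type libraries. Sema6c stood at 21.0, 23.6 and 21.0 CPM in wild type against 37.1, 29.4 and 28.6 CPM in the knockout and rose by 0.53 (SE 0.11). The exception was Sema6a, a ligand of Plxna2 and Plxna4 in migrating neurons, which stood at 65.4, 57.2 and 57.8 CPM in wild type against 23.7, 26.8 and 28.7 CPM in the knockout and fell by 1.18 (SE 0.087). Within a library, the level per kilobase of Sema4d was 0.415 to 0.519 of that of Sema6a in wild type and 1.85 to 2.24 times that of Sema6a in the knockout.

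Smaller shifts were seen in Sema4b and Sema6b. Sema4b stood at 50.9, 42.2 and 54.4 CPM in wild type against 56.7, 59.3 and 57.6 CPM in the knockout (0.24, SE 0.080), and its passing call, with an adjusted p of 0.0104 by edgeR, rested on wild-type replicate 2, the lowest library. Without it the adjusted p was 0.154. Sema6b was at 0.49 (SE 0.17), and its edgeR adjusted p of 0.0125 became 0.0828 when wild-type replicate 2 was left out, and 0.0865 when knockout replicate 1 was. Sema4c, a ligand of Plxnb2, and Sema5b did not pass, at 0.10 (SE 0.068) and -0.14 (SE 0.17). Sema4c was at 59.6 ± 1.92 and 64.0 ± 5.06 CPM in wild type and knockout, and Sema5b at 11.1 ± 0.939 and 10.1 ± 2.09 CPM. Sema4c was the best represented transmembrane semaphorin per kilobase, with 33.0 ± 2.05% of the class in wild type and 31.7 ± 1.91% in the knockout. As a sum the class stood at 39.4 ± 1.14 and 43.9 ± 1.31 CPM per kilobase.

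All 6 plexins tested changed, 4 up and 2 down, beside 68.6% of all tested genes, 34.5% up and 34.0% down. Plxna1 (ENSMUSG00000030084, chromosome 6, 89316314 to 89362620), a signalling receptor for secreted and transmembrane semaphorins, stood at 345, 362 and 362 CPM in wild type against 195, 199 and 199.8 CPM in the knockout and fell by 0.85 (SE 0.041). Plxnb1, the receptor of Sema4d, stood at 54.9, 55.0 and 53.9 CPM in wild type against 24.1, 25.3 and 23.8 CPM in the knockout and fell by 1.16 (SE 0.082). In both, the spread within a group was small beside the gap. Plxna2 (ENSMUSG00000026640, chromosome 1, 194618218 to 194816869), which takes part in the layering of neurons, moved the other way. It stood at 46.6, 44.1 and 48.0 CPM in wild type against 118, 120.2 and 115 CPM in the knockout and rose by 1.35 (SE 0.056). Plxnb2, needed for neural tube closure, stood at 122, 121 and 118 CPM in wild type against 202, 211 and 196 CPM in the knockout and rose by 0.75 (SE 0.045). Every knockout library of these genes exceeded every wild-type library. Plxnd1, the vascular receptor of Sema3e, stood at 22.1, 19.9 and 25.0 CPM in wild type against 35.4, 43.9 and 39.0 CPM in the knockout and rose by 0.82 (SE 0.11). Plxna3, an X-linked partner of Nrp2, stood at 24.4, 23.0 and 26.4 CPM in wild type against 32.9, 33.7 and 36.3 CPM in the knockout and rose by 0.48 (SE 0.097). The adjusted p of the 6 genes ran from 3.63e-17 to 9.84e-05 by edgeR. Exons on the other strand (Gm26811) overlap 10.7% of the exon length of Plxna1.

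The summed plexin level was 69.6 ± 1.03 CPM per kilobase in wild type and 67.3 ± 1.73 in the knockout, a ratio of 0.968. Plxna1 supplied 56.6 ± 0.947% of it in wild type and 32.5 ± 0.67% in the knockout. Plxnb2 supplied 22.4 ± 0.714% and 39.0 ± 0.807%, so the leading plexin transcript changed from Plxna1 to Plxnb2. Between the B plexins, the level of Plxnb2 per kilobase was 2.72 to 2.77 times that of Plxnb1 in wild-type libraries and 10.2 to 10.4 times in knockout libraries. Between the A plexins, Plxna2 stood at 0.0642 to 0.0713 of the level of Plxna1 in wild type and at 0.304 to 0.32 in the knockout.

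The neuropilins moved in opposite directions. Nrp1 (ENSMUSG00000025810, chromosome 8, 128358604 to 128503363), the co-receptor of Sema3a and of VEGF, stood at 44.1, 45.2 and 41.2 CPM in wild type against 19.1, 16.1 and 17.3 CPM in the knockout and fell by 1.32 (SE 0.099). Nrp2, the co-receptor of Sema3f, stood at 47.1, 47.3 and 47.2 CPM in wild type against 56.2, 68.5 and 59.0 CPM in the knockout and rose by 0.38 (SE 0.076). Neither gene's groups overlapped. Per kilobase the transcripts were near parity in wild type, with Nrp2 at 0.865 to 0.947 of Nrp1 in each library, and Nrp2 was 2.43 to 3.52 times Nrp1 in the knockout libraries.

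**Figure D3:**
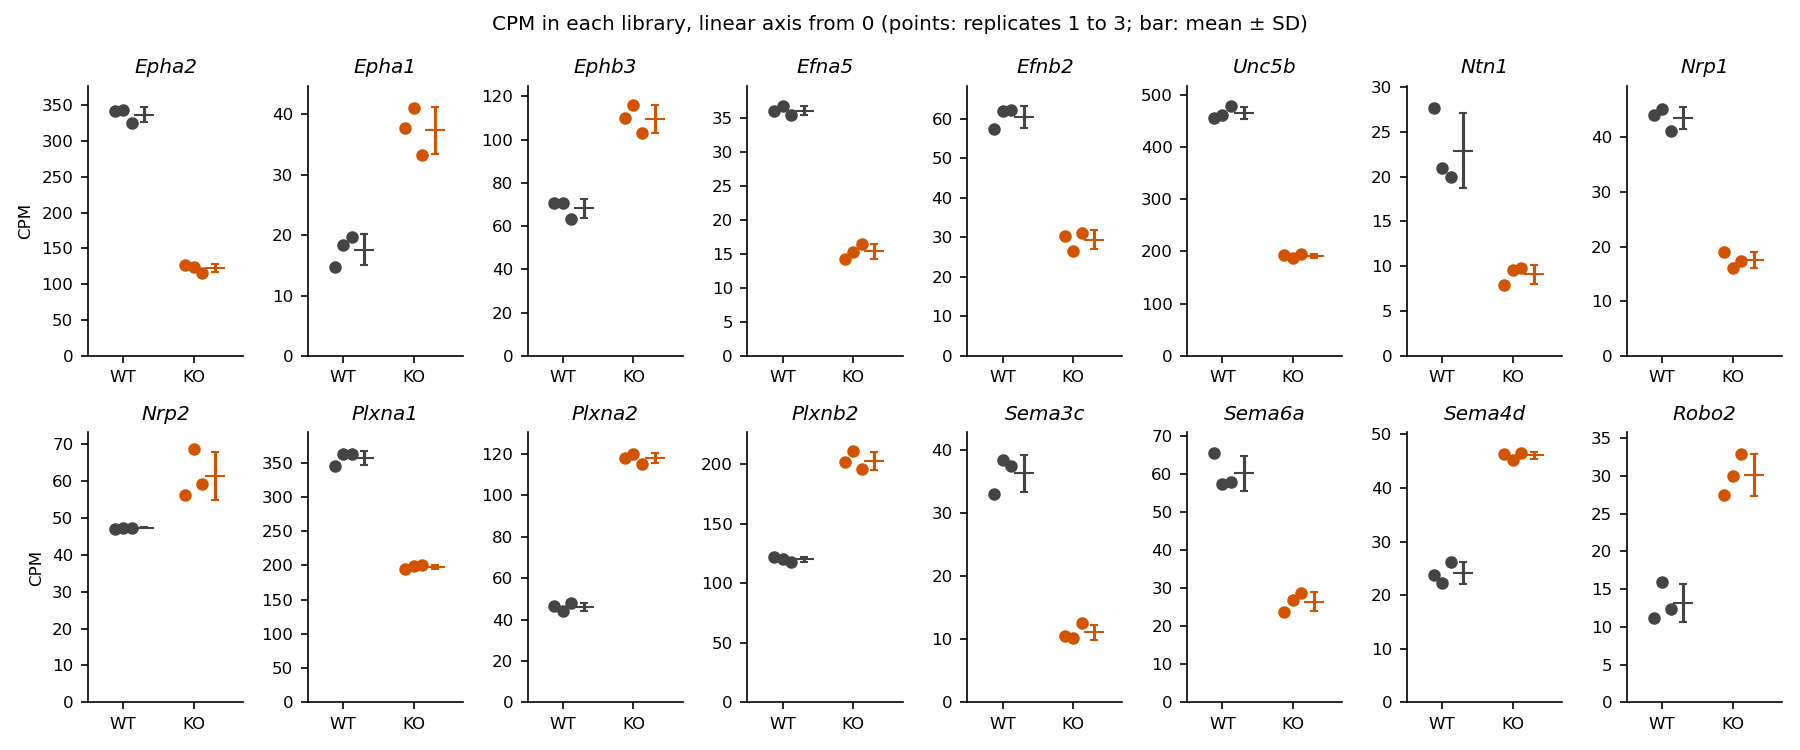
CPM in each of the 3 wild-type (grey) and 3 knockout (orange) libraries for 16 guidance genes, on linear axes that start at 0, with the mean and SD beside the points. In each panel the points of the groups are separate, with Epha2, Unc5b, Nrp1 and Sema3c lower in the knockout and Plxna2, Ephb3, Sema4d and Robo2 higher. The genes shown are among those that passed without overlap, so the separation follows from that choice. Of all tested genes, 70.9% were separated.

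Robo receptors rose, while none of the 3 Slit ligands passed the test. Of all tested genes 34.5% rose and 34.0% fell. Robo2 (ENSMUSG00000052516, chromosome 16, 73891839 to 74411825) stood at 11.1, 16.0 and 12.4 CPM in wild type against 27.4, 29.9 and 32.9 CPM in the knockout and rose by 1.19 (SE 0.13). Robo1, its neighbour 846 kb away on chromosome 16, stood at 74.5, 72.5 and 77.4 CPM in wild type against 84.9, 84.4 and 84.3 CPM in the knockout and rose by 0.18 (SE 0.054), with an adjusted p of 0.00565 by edgeR. The 3 knockout libraries of Robo1 lay close together and above every wild-type library. Robo1 kept the larger share of the Robo level per kilobase, 85.4 ± 2.66% in wild type and 74.3 ± 1.80% in the knockout. Slit1 was at 0.20 (SE 0.16), Slit2 at 0.08 (SE 0.21) and Slit3 at -0.08 (SE 0.13). Slit3 was the most abundant of these repellents by CPM, at 17.0 ± 1.95 in wild type and 16.1 ± 1.39 in the knockout. Slit1 was at 10.6 ± 2.09 and 12.1 ± 1.57 CPM and Slit2 at 6.49 ± 1.17 and 6.86 ± 1.45 CPM, and the groups overlapped for each Slit. At an unadjusted p under 0.05 by edgeR, and by DESeq2, the count of changed Slits was also 0.

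Netrin and its most abundant receptor fell together. Ntn1 (ENSMUSG00000020902, chromosome 11, 68209364 to 68400823), the secreted cue of the floor plate, stood at 27.7, 21.0 and 20.001 CPM in wild type against 7.86, 9.61 and 9.84 CPM in the knockout and fell by 1.32 (SE 0.15). Unc5b (ENSMUSG00000020099, chromosome 10, 60762593 to 60831581), a repulsive netrin receptor of axons and vessels, stood at 457, 462 and 478 CPM in wild type against 193, 187 and 195 CPM in the knockout and fell by 1.28 (SE 0.040), with an adjusted p of 9.58e-20 by edgeR. The libraries within a group lay close together beside the gap between the groups. Unc5c, its relative in the nervous system, went the other way from a far lower level. It gave 10, 13 and 11 reads in wild type against 25, 24 and 27 in the knockout and rose by 1.25 (SE 0.34). Dcc, the attractive receptor, was too low to test, with 8, 5 and 4 reads in wild type against 13, 10 and 7 in the knockout. Unc5b made up 99.8 ± 0.0216% of the level of the listed netrin receptors per kilobase in wild type and 99.2 ± 0.112% in the knockout. Ntn1 lies on chromosome 11, as do Efnb3 and Slit3, at 27.8 Mb from the HoxB cluster named in the series title (26.6 Mb for Efnb3 and 60.5 Mb for Slit3).

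Ranked by CPM per kilobase in wild type, the guidance genes ran from Unc5b (74.4 ± 1.76), Epha2 (72.0 ± 2.25) and Plxna1 (39.4 ± 1.13) down to genes with a handful of reads. In wild type the means of Unc5b and Epha2 differed by less than the sum of their SDs. Unc5b stood above 96.1% of all tested genes in wild type and above 89.4% in the knockout, and Epha2 above 96.0 and 87.0%. In the knockout the order was Unc5b (30.6 ± 0.616), Plxnb2 (26.3 ± 0.977), Epha2 (26.2 ± 1.22) and Plxna1 (21.9 ± 0.316), with Plxnb2 and Epha2 within their spread of each other. Efna4 went from rank 4 to rank 11 of 53, Efna5 from 11 to 24 and Sema3c from 19 to 38. Efna1 went from 34 to 14, Plxna2 from 35 to 15 and Sema4d from 29 to 16. These levels use the union of annotated exons as length, which is too long where a gene is read from a short isoform.

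Besides Dcc, 4 listed genes had too few counts to be tested. Plxna4, a partner of Sema6a, gave 9, 12 and 9 reads in wild type against 1, 2 and 5 in the knockout, with the knockout libraries lowest. With no count filter its log2 fold change was -1.78 (SE 0.66), with an adjusted p of 0.0192 by edgeR. Sema3a, the founding repellent of its family, gave 6, 6 and 5 reads in wild type against 3, 13 and 2 in the knockout, Epha3 gave 4, 2 and 1 reads in wild type against 0, 1 and 1 in the knockout and Epha5 gave 3, 0 and 2 reads in wild type against 5, 4 and 4 in the knockout. None of these, nor Dcc, passed with no count filter (edgeR adjusted p 0.203 to 0.8504). For Sema3a, Epha3, Epha5 and Dcc a difference was not detectable at this depth.

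Ligands and receptors were also read as known partners, in a list of 24 pairs that share members. In 20 pairs both genes were tested, and in 13 both passed. Of the 13, 10 pairs went in opposite directions, 2 rose together and 1 fell together. Efna1 rose while its receptor Epha2 fell, and Efna5 fell while Epha7 rose. Sema6a fell while Plxna2 rose, Sema3e fell while Plxnd1 rose, and Sema4d rose while Plxnb1 fell. Sema6d rose while Plxna1 fell, and Sema3c and Sema3f fell while Nrp2 rose. Sema5a rose together with Plxna3, a receptor also reported for it, and Ntn1 fell with Unc5b and against Unc5c, which entered the test through the knockout libraries. The pairs of Epha4 with Efna3, which rose, and with Efnb2, which fell, rest on the Epha4 call that several alternatives did not keep. Other pairings within these families were not listed, and some of them moved together. Efna5 fell with Epha2, Sema3c fell with Nrp1, and Efna1 rose with Epha7. Since the genes were listed with results known, and another list would give other counts, these counts only describe the pairs listed.

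**Figure D4:**
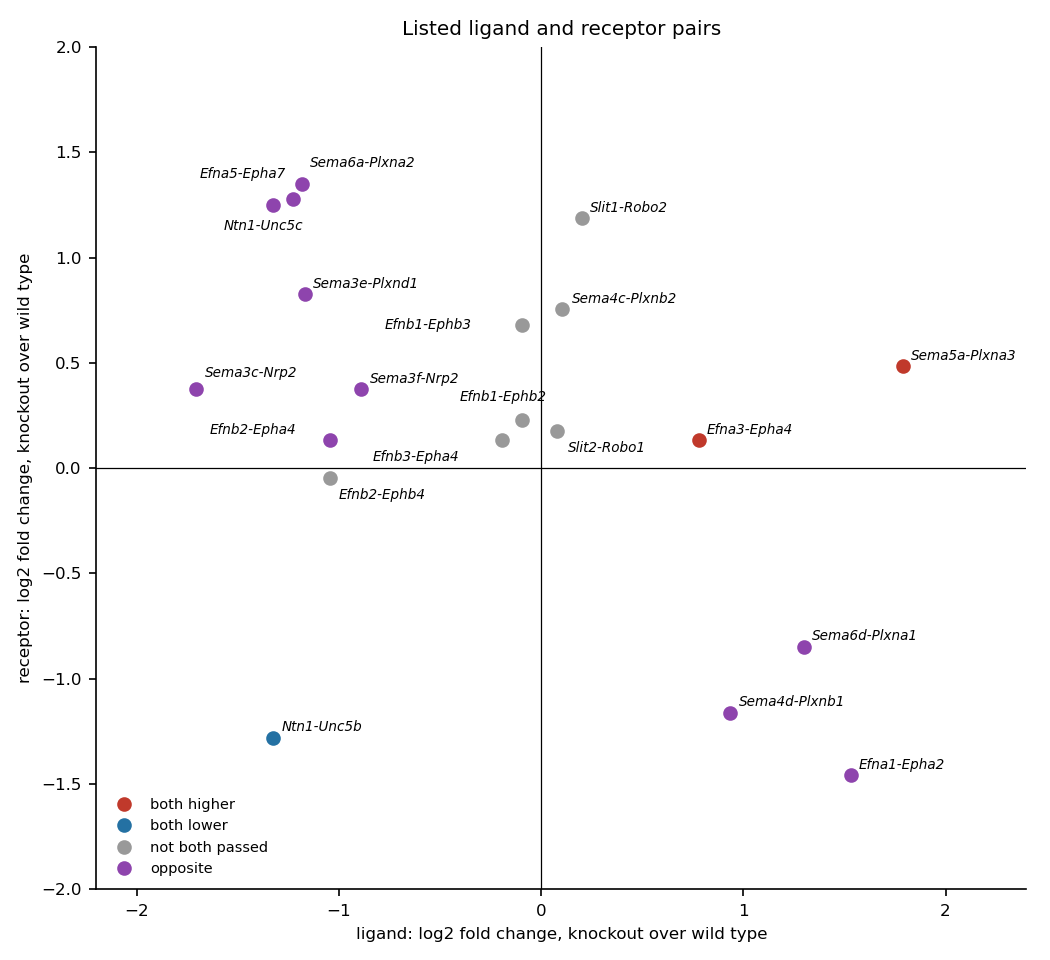
Log2 fold change of a ligand (x axis) against that of a known receptor (y axis), knockout over wild type, for the 20 listed pairs with both genes tested. Purple pairs passed and went in opposite directions (10 pairs), red and blue pairs went the same way (2 higher and 1 lower), and in grey pairs at least 1 gene did not pass. Pairings that were not listed are not shown.

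Other genes of these families also moved in both directions. Of 26 listed, 15 were tested, 6 rose and 4 fell. That is 66.7%, near the 68.6% of all tested genes, of which 34.5% rose and 34.0% fell. The median absolute log2 fold change was 0.89, beside 0.49 for all tested genes. Sema4g, a transmembrane semaphorin, rose by 1.84 (SE 0.073), from 28.0 ± 2.88 to 101 ± 4.34 CPM, and Sema4f rose by 1.29 (SE 0.17). Flrt3, a ligand of Unc5 and Robo proteins, rose by 0.96 (SE 0.046), from 141 ± 3.51 to 274 ± 14.8 CPM, whereas its relative Flrt2 fell by 1.36 (SE 0.19). Rgmb, which binds neogenin, fell by 1.08 (SE 0.15), and Draxin, a repellent that binds netrin receptors, fell by 0.91 (SE 0.26). These named genes had the smallest adjusted p by edgeR, and each kept its groups apart. Of the 15 tested, 11 were separated, beside 70.9% of all tested genes.

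Inside the cell, 48 of 49 listed partners of guidance receptors were tested, of which 15 rose and 21 fell (75.0%, beside 68.6% of all tested genes). Their changes were small: the median absolute log2 fold change was 0.30, beside 0.49 for all tested genes, and 6 of the 48 (12.5%) passed and moved by 1 or more, beside 21.0%. Cfl1, encoding the actin-severing protein cofilin, fell by 1.13 (SE 0.033), from 802 ± 14.6 to 366 ± 5.67 CPM. Dpysl3, a collapsin response mediator in growth cones, fell by 1.00 (SE 0.051), and Rac1, the GTPase that drives lamellipodia, fell by 0.58 (SE 0.043). Rras, a small GTPase that plexins act on, rose by 1.11 (SE 0.10). Pak1, a kinase downstream of Rac, rose by 0.69 (SE 0.077) and Tiam1, an activator of Rac, rose by 0.71 (SE 0.094). Exons on the other strand overlap 51.4% of the exon length of Rac1 and 16.5% of that of Cfl1, so reads of those genes may not be separated from their neighbours.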

How the data were processed

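Per the submitters' processing notes, the authors used HISAT2 2.1.0, HTSeq 0.9.1 and DESeq2 1.18.1 with mm10. The deposited files hold raw read counts per Ensembl gene, 1 file per library. The annotation release, strand setting and read layout are not given in the sources used here. HTSeq's 5 tally rows were left out of library sizes. Reads in no feature were 42.3 to 43.5% of the tallied total and reads in genes 36.0 to 38.4%. Gene names, exon lengths and overlaps came from GENCODE M21 (GRCm38), where 52489 of 52636 identifiers matched and 147 did not, and promoter sequences from RefSeq (GRCm38.p6).

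Low-count genes were removed with filterByExpr (minimum count 10), libraries were scaled by TMM, and 3 knockout were compared with 3 wild-type libraries by edgeR 4.0.16's quasi-likelihood test (R 4.3.3), without covariates, with Benjamini-Hochberg adjustment over all 15816 tested genes and a threshold of 0.05. The procedure was tested on simulated data. Library values are TMM-scaled CPM, and CPM per kilobase divides by the union of exons. No pair of libraries agreed within sampling noise. The p-values measure the spread between these libraries. Precision rests on the counts behind each value, at 7780368 to 9472916 gene counts per library, and reads without molecular identifiers are not independent molecules.

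The guidance genes and the other lists were chosen with earlier results of these data known. Library values are given for genes that passed, did not overlap between groups and had either a log2 fold change of 1 or more in size or at least 20 CPM, and fold change and level for genes that did not pass. From the list of other family genes and that of intracellular partners, up to 3 higher and 3 lower genes with the smallest adjusted p are named. Alternatives were RLE and upper-quartile scaling, no filter, CPM of at least 1 in 3 libraries, DESeq2 1.42.0, limma-voom (limma 3.58.1), a replicate block and leaving out each library. Leaving out genes that overlap exons of the other strand was added after seeing the data.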

Additional observations from a re-analysis of the deposited data

How the results depend on the processing

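The count of 38 changed guidance genes (23 higher, 15 lower) was 36 to 39 with each library left out in turn, 38 with RLE or upper-quartile scaling, with limma-voom, with DESeq2 (22 higher, 16 lower) and with no filter, and 39 with CPM of at least 1 in 3 libraries. Without the 10 genes that overlap exons of the other strand it was 31 of 39 tested, beside 38 of 48. That alternative was chosen after seeing the data. Of 38 passing genes, 35 kept direction and call under each scaling, filter, tool, block and left-out library, and Epha4, Sema4b and Sema6b did not. The log2 fold change of Epha4 was 0.12 with DESeq2 and 0.081 to 0.18 with a library left out. Ephb6 passed only without knockout replicate 2. None of the 38 changed direction. With a library left out, genes that did not pass changed sign: Sema5b ranged from -0.24 to 0.025, Slit2 from -0.085 to 0.22 and Slit3 from -0.13 to 0.012. The cause was not tested. Over all tested genes, TMM put the median log2 fold change at 0.0091, RLE at 0.0040 and upper-quartile scaling at 0.046.

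Replicate numbers gave no pairing: deviations of same-numbered libraries correlated at 0.013, 0.0049 and -0.013, and wild-type replicate 2 correlated best with knockout replicate 3. A replicate block gave 38 changed guidance genes and 10862 of all genes, against 10848 without it. Depth limits Epha3, Epha5, Sema3a, Plxna4 and Dcc, and widens the error of Epha8, Ephb1, Unc5c and Sema6d.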
